A study of Mus musculus with 6 samples.

Results

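The *Dlk1*-*Meg3* imprinted domain lies on the distal part of mouse chromosome 12, and 7 of its genes, *Dlk1*, *Rtl1*, *Dio3*, *Meg3*, *Rian*, *Mirg* and *Begain*, were followed here among 53801 mouse genes listed. The genes were chosen by their place in the domain after *Dlk1* had been seen to be lower in every *Snd1* knockout clone, so the values of all 7 in that comparison are a description and carry no test. RNA was sequenced from 6 clonal lines of MIN6, a mouse insulinoma line used as a model of the β cell, with 1 library per clone. All 6 lines came from Cas9-expressing MIN6 cells that received a lentiviral guide RNA, were selected with puromycin and were grown from single cells. In the 3 control clones the guide was directed at intron 2 of *Snd1*, and in the 3 *Snd1* KO clones at exon 2, for which the study used 2 guides. Its supplement shows 1 guide for KO 1 and KO 2 and the other for KO 3. Those clone numbers were assumed to match the replicate numbers used here. No further agent or time is given for these cultures, and since each line is 1 clone, a difference between clones and a difference between groups rest on the same 6 lines.

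Imprinted genes are transcribed mainly from the copy inherited from one parent. In this domain *Dlk1*, *Rtl1* and *Dio3* are known as the protein genes expressed from the paternal copy, and *Meg3*, *Rian* and *Mirg* as noncoding RNAs expressed from the maternal copy, where they are transcribed in one direction and host many microRNAs and C/D box small nucleolar RNAs. A methylated control element between *Dlk1* and *Meg3* sets which copy is used. *Dlk1* encodes a transmembrane protein related to the Notch ligands, *Rtl1* a retrotransposon-derived protein needed in the placenta, and *Dio3* the deiodinase that inactivates thyroid hormone. *Begain*, at the proximal edge, encodes a protein first found at synapses. In the pancreas *Dlk1* and *Meg3* are known as β cell-enriched transcripts. The reads were not assigned to parental copies, so paternal and maternal name what is known of these genes and were not measured.

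The results turn on *Dlk1* and *Meg3*, which start 88.2 kb apart on the same strand, and their promoters are shown because the values of these neighbours lay on opposite sides of the controls. Each window holds 300 bases around the RefSeq start on GRCm38.p6, and was not a measurement of these clones. Capitals mark CG dinucleotides and the letters TGACGTCA, the cyclic AMP response element, which read the same on both strands and hold a CG themselves.
*Dlk1*, chr12:109452573-109452872, + strand: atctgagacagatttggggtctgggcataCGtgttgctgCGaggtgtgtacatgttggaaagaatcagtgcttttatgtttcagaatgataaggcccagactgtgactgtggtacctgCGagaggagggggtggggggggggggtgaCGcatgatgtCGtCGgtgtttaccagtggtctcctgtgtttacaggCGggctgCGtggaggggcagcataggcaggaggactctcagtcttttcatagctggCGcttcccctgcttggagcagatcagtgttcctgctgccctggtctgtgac
*Meg3*, chr12:109540746-109541045, + strand: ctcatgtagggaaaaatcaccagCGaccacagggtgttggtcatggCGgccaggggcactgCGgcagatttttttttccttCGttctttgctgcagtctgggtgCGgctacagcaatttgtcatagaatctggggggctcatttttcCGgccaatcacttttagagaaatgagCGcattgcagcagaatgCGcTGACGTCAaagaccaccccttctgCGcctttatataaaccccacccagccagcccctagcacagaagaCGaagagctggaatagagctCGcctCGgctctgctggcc

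The *Dlk1* window held 9 CG and no TGACGTCA, and the *Meg3* window shown held 13 CG and 1 TGACGTCA. Over 32851 RefSeq promoter windows of the same length the median was 7 CG, 45.8% held at least as many as *Dlk1* and 37.9% at least as many as *Meg3*. TGACGTCA was in 1.79% of all windows. TATAAA, searched on both strands, had 2 overlapping matches in the *Meg3* window, which lie on opposite strands, and none in that of *Dlk1*, while 13.6% of all windows held it. A second RefSeq window of *Meg3*, chr12:109545148-109545447, held 1 CG and neither motif. Of the other members, the *Rian* window had 0 CG, the *Mirg* window 10, the *Dio3* window 25 and the 5 *Begain* windows 34 to 46. *Rtl1* had no entry. These matches describe letters and are not evidence of a bound factor.

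RefSeq listed 113 different mature microRNAs from 61 genes of the interval. They carried 104 different seeds, the bases 2 to 8 by which a microRNA pairs with its targets, and 9 seeds were shared by a pair of microRNAs. The products of *Mir341* and *Mir1188* are shown because these hairpin genes, in introns of *Rian*, held the most library reads of any microRNA gene of the domain. The following pairs, miR-379-5p with miR-1193-5p and miR-376b-5p with miR-376c-5p, show shared seeds. Seeds are in capitals.
mmu-miR-341-5p: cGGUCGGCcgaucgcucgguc
mmu-miR-341-3p: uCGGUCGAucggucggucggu
mmu-miR-1188-5p: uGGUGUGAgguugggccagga
mmu-miR-1188-3p: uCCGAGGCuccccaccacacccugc
mmu-miR-379-5p: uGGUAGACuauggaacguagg
mmu-miR-1193-5p: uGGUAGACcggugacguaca
mmu-miR-376b-5p: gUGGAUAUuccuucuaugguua
mmu-miR-376c-5p: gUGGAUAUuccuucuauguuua

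Values were deposited as TPM (transcripts per 1000000 transcripts), from which whole read counts were recovered. The libraries held 25865183 to 33055380 reads in genes, and a count of 3 reads was taken as the floor of detection. These totals exceed the approximate number of reads per library that the paper states for its paired-end sequencing. A recovered read may therefore not stand for 1 sequenced fragment, and the difference was not resolved. *Snd1* itself was at 113, 119 and 112 TPM in controls 1 to 3 and at 14.7, 57.1 and 19.9 TPM in KO clones 1 to 3. In RNA, all KO clones were below all controls, and KO 2 kept 49.8% of the control mean against 12.9% in KO 1 and 17.3% in KO 3. The paper reports the KO clones as SND1-deficient by immunoblot, with indels that disrupted the protein. The *Snd1* RNA left is thus not a level of SND1 protein. All 11 β cell markers examined, among them *Ins1*, *Ins2*, *Pdx1* and *Mafa*, were detected, with summed levels of 47572 to 81275 TPM in controls and 52078 to 88954 in KO clones. Of these, *Neurod1*, at 379 ± 21.8 and 653 ± 87.3 TPM (SD, n = 3 each; adjusted p = 0.372 in limma), and *Slc30a8*, at 383 ± 312 and 864 ± 123 TPM (adjusted p = 0.585 in limma), were higher in every KO clone. *Slc2a2* overlapped at 132 ± 58.5 and 54.9 ± 31.9 TPM (adjusted p = 0.607 in limma). In a limma fit with quality weights, control 3 and KO 1 had the lowest weights, 0.279 and 0.286, against 0.672 to 3.91 for the others, so results are also given without single clones where this matters. Over 17823 genes tested, 1 (0.00561%) changed at least 2-fold with an adjusted p under 0.05 in limma. It was *Gm24966*, a small nucleolar RNA gene on chromosome 7 with 93 reads over the control clones and 4 over the KO clones. *Gm24966* lies at chr7:59344073-59344151. The paternally expressed *Snrpn*, from the list of other imprinted genes used below, lies at chr7:59982495-60140219. No gene was called with no filter on low values, with a replicate block, in voom on the recovered reads, or when any control, KO 1 or KO 3 was left out, and 895 were called with clone quality weights. The median log2 fold change of all genes was 0.04.

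*Dlk1* (ENSMUSG00000040856, chr12:109452823-109463336 on GRCm38, + strand) was lower in every *Snd1* KO clone, which is the pattern it was chosen by. Its level was 14.3, 15.0 and 9.09 TPM in controls 1 to 3 and 0.0289, 1.54 and 0 TPM in KO clones 1 to 3. These are 1650, 1644 and 905 reads against 3, 154 and 0 reads. The lowest control, control 3 at 9.09 TPM, thus stood well above the highest KO clone, KO 2 at 1.54 TPM.

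The KO clones were far from equal among themselves. KO 2 kept 12.02% of the control mean, with a 95% exact Poisson interval of 10.2% to 14.1% for its reads. KO 1 kept 0.226%, with an interval of 0.0465% to 0.659%. In KO 3 no read was found, and taking 3 reads as the floor its level was at least 458-fold lower than the control mean. Counting error therefore separates KO 2 from both others. The clone with the most *Snd1* RNA among the KO clones, KO 2, was also the one with the most *Dlk1*. A link between these RNA levels was not tested. Intervals and floors cover counting error only, since reads were amplified without molecular identifiers. The intervals take recovered reads as independent and would be too narrow if more than 1 came from the same fragment.

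The mean of *Dlk1* was 12.8 ± 3.24 TPM (SD, n = 3) in controls and 0.523 ± 0.881 TPM (SD, n = 3) in KO clones, or 4.08% of control. On the log2(TPM + 1) scale the difference was -3.30 with a standard error of 0.41, a scale that understates changes of low values. It was -5.51 with a pseudocount of 0.1 and -7.74 in a fit of the recovered reads. Without control 3 it was -3.51 and without KO 1 -3.09. RNA from fewer cells that express a gene and less RNA per cell cannot be told apart in these bulk libraries.

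**Figure D1:**
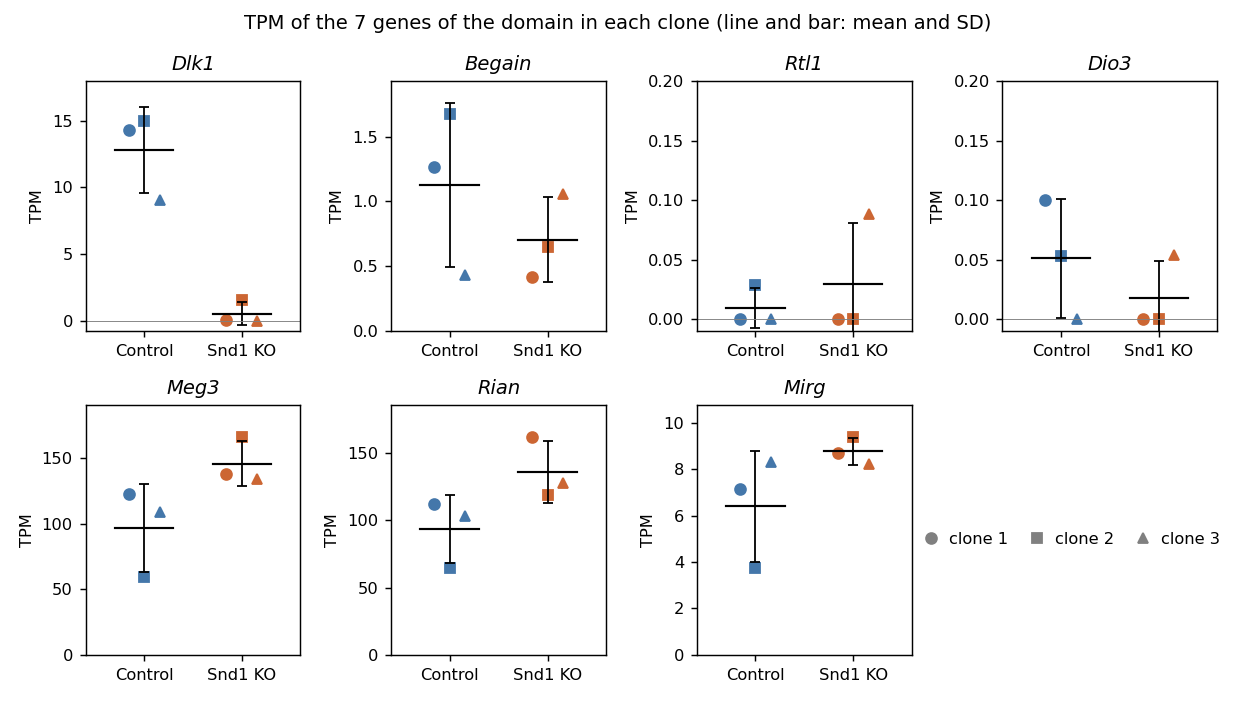
TPM of each of the 7 genes (vertical axis, linear, a separate scale for each gene) in the 3 control and the 3 Snd1 KO clones (horizontal axis), with symbols for clones 1 to 3, a line at the group mean and bars for the SD. The Dlk1 points of the KO clones, 0 to 1.54 TPM, lie below all control points, 9.09 to 15.0 TPM, while the KO points of Meg3 and Rian lie above their controls and Rtl1 and Dio3 stay near 0.

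The other paternally expressed protein genes were not detectable above the floor in any clone. *Rtl1* (ENSMUSG00000085925, chr12:109589193-109600330, - strand) had 0, 1 and 0 reads in controls 1 to 3 and 0, 0 and 3 reads in KO clones 1 to 3. *Dio3* (ENSMUSG00000075707, chr12:110279068-110281097, + strand) had 2, 1 and 0 reads in controls and 0, 0 and 1 reads in KO clones. At this depth the 3-read floor was 0.0824 to 0.0953 TPM for *Rtl1* and 0.151 to 0.174 TPM for *Dio3*, so no fold change is given for either. Both fell below the filter of a mean of 0.5 TPM, and 5 of the 7 genes passed it. *Rtl1* lies opposite to maternal transcripts that run antisense to it, and the strand setting of the counting is not given in the sources used here. *Dio3os*, the noncoding gene beside *Dio3*, was at 0 reads in all 6 clones.

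The maternally expressed noncoding RNAs, of which *Meg3* and *Rian* were the most abundant transcripts of the 7, lay higher in KO clones on average. *Meg3* (ENSMUSG00000021268, chr12:109541001-109571726, + strand), a long noncoding RNA studied as a growth suppressor, was at 123, 59.1 and 109 TPM in controls 1 to 3 and at 138, 166 and 134 TPM in KO clones 1 to 3. Every KO clone was above every control, and control 2 was well below the other controls. The means were 97.0 ± 33.6 and 146 ± 17.4 TPM (SD, n = 3 each), a ratio of 1.51, with a log2 difference of 0.65 and a standard error of 0.27.

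*Rian* (ENSMUSG00000097451, chr12:109603940-109661716, + strand), host of small nucleolar RNAs of the domain, was at 112, 64.8 and 103 TPM in controls and at 162, 119 and 127 TPM in KO clones. The groups did not overlap, and control 2 was again the lowest clone. The means were 93.5 ± 25.2 and 136 ± 22.7 TPM (SD, n = 3 each), a ratio of 1.45, with a log2 difference of 0.56 and a standard error of 0.23.

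*Mirg* (ENSMUSG00000097391, chr12:109729764-109749460, + strand), host of a large microRNA cluster, was at 7.15, 3.73 and 8.32 TPM in controls and at 8.68, 9.37 and 8.23 TPM in KO clones. Here the groups overlapped, because KO 3 lay just below control 3. The means were 6.40 ± 2.38 and 8.76 ± 0.573 TPM (SD, n = 3 each), a ratio of 1.37, with a log2 difference of 0.46 and a standard error of 0.27.

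Much of the size of these differences came from 1 clone. Without control 2 the log2 difference fell from 0.65 to 0.33 for *Meg3*, from 0.56 to 0.32 for *Rian* and from 0.46 to 0.16 for *Mirg*. Its sign stayed above 0 in each of 14 alternative analyses for each of the 3 genes. For *Meg3* and *Rian*, whose groups did not overlap, leaving out a clone could not change the sign. The replicate block returned the same estimates by its construction. The separation of the groups for *Meg3* and *Rian*, and the overlap for *Mirg*, also held after quantile normalization and after median ratio scaling of the TPM values. Across all genes tested, 9.69% lay higher in every KO clone than in every control and 4.03% lay lower in every one. Of the 5 members that passed the filter, *Meg3* and *Rian* were of the first kind and *Dlk1* of the second, counts from which nothing is read because the same contrast chose the genes.

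*Begain* (ENSMUSG00000040867, chr12:109032187-109068217, - strand) was at 1.26, 1.68 and 0.434 TPM in controls and at 0.416, 0.647 and 1.06 TPM in KO clones, from 16 to 68 reads. The groups overlapped, with control 3 near the lowest KO clone. The means were 1.12 ± 0.633 and 0.707 ± 0.324 TPM (SD, n = 3 each), and the log2 difference was -0.29 with a standard error of 0.32. It was -0.095 without control 2, -0.16 without KO 1 and -0.55 without control 3.

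The order of the levels was read after dividing reads by the merged exon length of each gene, since the deposited values appear to divide by the summed exons of all transcripts. On this per-length scale, in TPM, *Meg3* at 60.7 to 126 and *Rian* at 65.2 to 112 were the highest in controls and did not differ beyond their spread. *Dlk1* followed at 20.3 to 33.4, then *Mirg* at 6.27 to 14.02 and *Begain* at 0.460 to 1.77, with *Dio3* and *Rtl1* last. In KO clones *Meg3* at 138 to 170 and *Rian* at 119 to 164 again overlapped. *Mirg* at 13.9 to 15.7 now stood above *Dlk1* at 0 to 3.41, whose range overlapped that of *Begain* at 0.443 to 1.12.

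Ratios of TPM within a clone do not depend on how libraries were scaled, and they set the paternally expressed *Dlk1* against the maternally expressed *Meg3*. On the deposited scale *Dlk1* was at 11.6%, 25.4% and 8.35% of the *Meg3* TPM in controls 1 to 3, and at 0.0209%, 0.928% and 0% in KO clones 1 to 3. Per merged exon length, the scale used above to order the genes, these shares were 25.2%, 55.0% and 18.1% in controls. In KO clones they were 0.0452%, 2.01% and 0%. The highest share among the controls, in control 2, went with the lowest *Meg3*. The log2 ratio of (TPM + 1) was -3.02, -1.91 and -3.44 in controls and -7.08, -6.04 and -7.08 in KO clones, with means of -2.79 ± 0.79 and -6.73 ± 0.60 (SD, n = 3 each). The added 1 TPM sets the log2 ratios of KO 1 and KO 3, which were -10.07 and -10.39 with a pseudocount of 0.1, where the SD of the KO clones was 2.06. The mean difference of -3.94 was -6.16 with that pseudocount and -4.76 per merged exon length, and between -4.29 and -3.50 when any single clone was left out.

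The maternally expressed RNAs kept closer proportions to each other across all 6 clones. *Rian* was at 91.4%, 110% and 94.9% of *Meg3* in controls and at 117%, 71.4% and 95.2% in KO clones, a 1.64-fold range. *Mirg* was at 5.80%, 6.32% and 7.65% of *Meg3* in controls and at 6.28%, 5.65% and 6.15% in KO clones, a 1.35-fold range. Per merged exon length the *Mirg* shares were 9.23% to 12.5% over all clones, with the same fold range. The levels themselves spanned 2.81-fold for *Meg3*, 2.49-fold for *Rian* and 2.51-fold for *Mirg*. The group means of the log2 ratios differed by -0.09 for *Rian* over *Meg3* and by -0.19 for *Mirg* over *Meg3*. *Begain* over *Meg3* spanned 9.43-fold, from 0.301% in KO 1 to 2.84% in control 2.

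**Figure D2:**
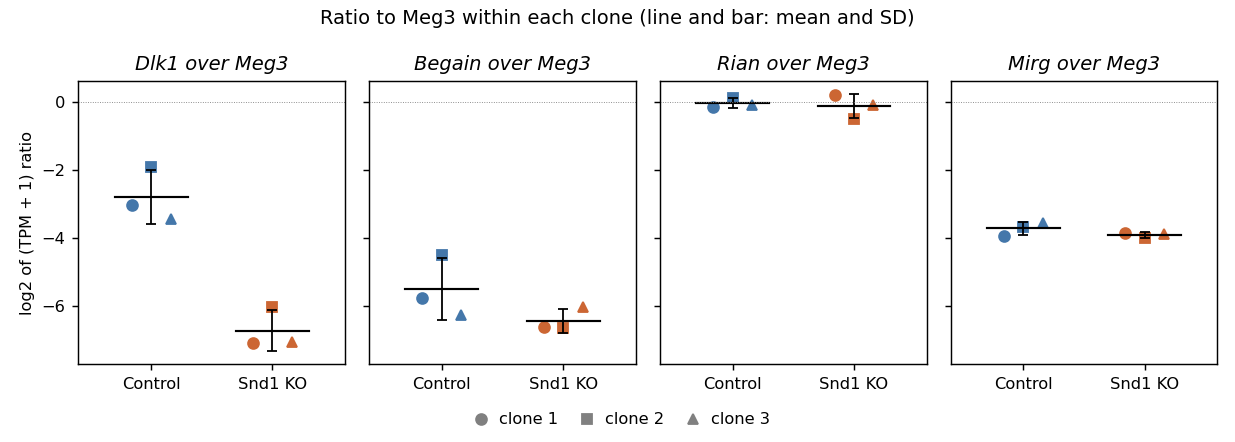
log2 ratio of (TPM + 1) of Dlk1, Begain, Rian and Mirg to that of Meg3 within each clone (vertical axis, shared by the panels), for control and Snd1 KO clones (horizontal axis), with a line at the group mean and bars for the SD. The Dlk1 ratio lies between -3.44 and -1.91 in controls and at or below -6.04 in KO clones, while the Rian and Mirg ratios of the groups overlap.

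The interval from *Begain* to *Dio3* (chr12:109032187-110281097, 1.25 Mb) held 122 annotated genes, of which 67 had a read in any clone and 51 passed the filter. Among the 46 of these that are not members, none passed the adjusted limma test, and 2 microRNA genes with at most 4 reads in a clone, *Mir337* and *Mir665*, had an unadjusted p under 0.05, a rule that 7.96% of all genes met. Between *Dlk1* and *Meg3* lay *Gm34081*, a long noncoding RNA on the - strand with 109, 47 and 10 reads in controls 1 to 3 and 7, 17 and 11 in KO clones 1 to 3. Controls 1 and 2 were above every KO clone and control 3 was within their range, and the log2 difference of -1.48 (SE 0.70) had an adjusted p of 0.607 in limma. On the *Rian* side, *Gm37899* had 20, 21 and 15 reads in controls and 18, 61 and 38 in KO clones. *B830012L14Rik* had 11, 2 and 13 reads in controls and 8, 44 and 20 in KO clones. *Gm26945*, in an intron of *Rian*, had 39, 18 and 26 reads in controls and 35, 24 and 24 in KO clones.

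Small RNA genes of the domain were read only through long-RNA libraries, so their reads come from hairpins, introns or host transcripts and are not levels of mature microRNAs. The 69 microRNA genes together held 40, 15 and 49 reads in controls and 29, 63 and 58 reads in KO clones, or 0.479 to 1.89 in controls and 0.986 to 2.33 in KO clones for each 1000000 reads in genes. The groups overlapped, and control 2, the clone with the least *Meg3*, *Rian* and *Mirg*, was also the lowest here. The 23 small nucleolar RNA genes held 45, 25 and 43 reads in controls and 48, 48 and 45 in KO clones, which for each 1000000 reads in genes were 1.36, 0.799 and 1.66 against 1.63, 1.77 and 1.48, with overlap.

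Of single small RNA genes, all in introns of *Rian* on its strand, the small nucleolar RNA *DQ267102* had 15, 10 and 23 reads in controls and 18, 19 and 20 in KO clones. *Mir341*, whose products are shown above, had 7, 2 and 2 reads in controls and 5, 7 and 7 in KO clones. *Mir1188* had 5, 6 and 2 reads in controls and 4, 6 and 6 in KO clones. *Gm23600* had 14, 8 and 10 against 18, 10 and 5 reads, and *Gm24564* had 11, 4 and 7 against 7, 16 and 13. The groups overlapped for each of these 5 genes. As 1 read on so short a gene weighs heavily in TPM, reads are given here and no fold change.

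The tested genes around the domain had log2 differences between -1.26 and 1.77. Within 2 Mb on either side, 111 genes were annotated and 56 passed the filter, of which none passed the adjusted limma test and 4 had an unadjusted p under 0.05, 7.14% of the 56 against 7.96% of all genes. Of the 56, 32 log2 differences were above 0 and 24 below, with a median of 0.06, beside 57.3% above 0 and a median of 0.04 for all genes. The proximal 17 had a median of 0.15 and the distal 39 a median of 0.06. By the rule for named genes, *Wars*, which charges the tryptophan transfer RNA, was at 65.8 ± 5.97 TPM in controls and 48.7 ± 7.15 in KO clones (SD, n = 3 each; log2 difference -0.43, SE 0.14, adjusted p = 0.577 in limma). *B930059L03Rik* was at 2.40 ± 0.411 and 4.18 ± 0.976 TPM (0.60, SE 0.22, adjusted p = 0.605 in limma). *Eml1* (log2 difference -0.26), *Tecpr2* (-0.19), *Gm33467* (0.76) and *Gm27299* (1.77, from 4 reads in all) were the others without overlap that the rule named.

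**Figure D3:**
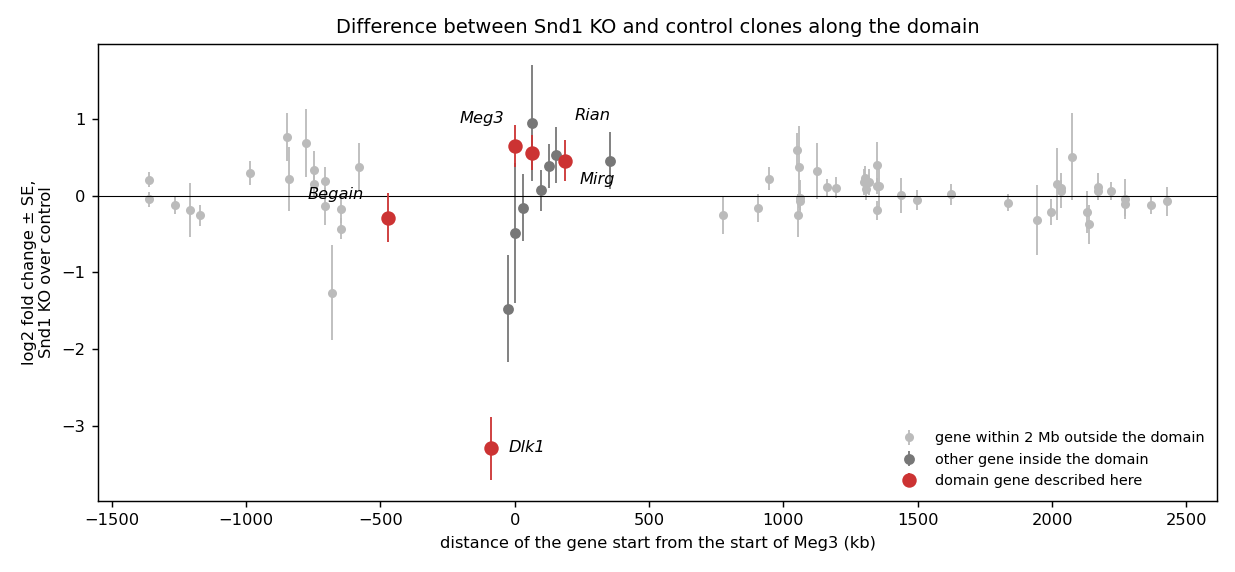
log2 fold change of Snd1 KO over control on the log2(TPM + 1) scale (vertical axis, with standard errors) against the distance of each gene's start from that of Meg3 in kb (horizontal axis), for members, other tested genes inside the domain apart from microRNA and small nucleolar RNA genes, and the 56 tested genes within 2 Mb outside it. Dlk1 at -3.30 lies far below the surrounding genes, and Meg3, Rian and Mirg lie between 0.46 and 0.65.

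Notch signalling was examined because *Dlk1* is related to the Notch ligands. Of 35 genes listed, 29 passed the filter, 17 with log2 differences above 0 and 12 below, with a median of 0.07, beside 57.3% above 0 and a median of 0.04 for all genes. None passed the adjusted or the unadjusted test in limma, the latter against 7.96% of all genes. Among ligands, *Jag1* was at 0.888, 1.43 and 0.428 TPM in controls 1 to 3 and at 1.56, 1.51 and 2.09 TPM in KO clones 1 to 3, with every KO clone higher (log2 difference 0.53, SE 0.28, adjusted p = 0.629 in limma). *Jag2*, a ligand present at 49.0 ± 4.25 TPM in controls, was at 51.7 ± 12.8 in KO clones (SD, n = 3 each). The related noncanonical ligand *Dner* was at 83.9 ± 18.3 and 67.5 ± 12.5 TPM, with overlap, and *Dlk2*, the close relative of *Dlk1*, was below the filter. The receptor *Notch1* was at 14.03 ± 2.24 and 16.8 ± 4.52 TPM, with overlap, while *Notch2*, *Notch3* and *Notch4* were below the filter.

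Among target genes of the pathway, *Hes1* overlapped between groups at 10.2 ± 1.85 and 13.7 ± 4.90 TPM (SD, n = 3 each). *Hes5* lay higher in every KO clone at 1.65 ± 0.262 against 2.62 ± 0.721 TPM (log2 difference 0.44, SE 0.23, adjusted p = 0.642 in limma). *Hey2* did so at 0.739 ± 0.380 against 1.53 ± 0.327 TPM (0.55, SE 0.27, adjusted p = 0.608 in limma). In all, 4 of the 29 lay higher in every KO clone, or 13.8% against 9.69% of all genes, and none lower.

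Factors that keep or remove imprints were listed as 21 genes, of which 18 passed the filter. Of these, 17 log2 differences were above 0 and 1 was below, with a median of 0.12, beside 57.3% above 0 and a median of 0.04 for all genes. None passed the adjusted limma test. By an unadjusted p under 0.05, 1 gene (5.56%) was found against 7.96% of all genes, and 3 (16.7%) lay higher in every KO clone against 9.69%. *Zfp445*, a zinc finger protein that guards imprints, was at 42.6, 40.6 and 36.5 TPM in controls and 51.7, 47.9 and 45.5 TPM in KO clones, with every KO clone higher (log2 difference 0.27, SE 0.11, adjusted p = 0.607 in limma), and was the gene with the unadjusted p under 0.05. *Dnmt3a*, a de novo DNA methyltransferase, was at 28.3, 29.0 and 33.0 TPM in controls and 34.4, 34.2 and 41.1 TPM in KO clones (0.27, SE 0.13, adjusted p = 0.607 in limma). *Dnmt3b* was the other gene without overlap, at 0.385 ± 0.0578 and 0.639 ± 0.0953 TPM (SD, n = 3 each). *Dnmt1*, which copies methylation at replication, was at 78.2 ± 10.5 and 81.6 ± 1.49 TPM, and the corepressor *Trim28* at 124 ± 1.76 and 123 ± 14.6 TPM. *Dnmt3l*, *Zfp57* and *Dppa3* were at 0 reads in every clone. DNA methylation was not analysed here.

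The Polycomb repressive complex 2 (PRC2), to which *Meg3* RNA is known to bind, was represented by 11 genes, all of which passed the filter. Of these, 9 log2 differences were above 0 and 2 below, with a median of 0.16, beside 57.3% above 0 and a median of 0.04 for all genes, and none passed the adjusted or the unadjusted test in limma, the latter against 7.96% of all genes. *Ezh2*, the methyltransferase, was at 23.5 ± 1.90 and 26.7 ± 5.52 TPM and overlapped between groups. *Rbbp7* alone (9.09% of the list against 9.69% of all genes) lay higher in every KO clone, at 180 ± 12.4 and 204 ± 8.37 TPM (SD, n = 3 each; log2 difference 0.18, SE 0.10, adjusted p = 0.656 in limma).

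Thyroid hormone genes were listed beside *Dio3*. Of 7, 6 passed the filter, 4 with log2 differences above 0 and 2 below, and none passed the adjusted or the unadjusted test in limma or separated the groups. With so few genes these counts say little beside 7.96% of all genes by unadjusted p, 9.69% higher and 4.03% lower in every KO clone. *Dio1*, which activates the hormone, was at 13.4, 8.96 and 47.4 TPM in controls and 37.6, 55.8 and 38.2 TPM in KO clones, with control 3 within the KO range (log2 difference 1.21, SE 0.56, adjusted p = 0.607 in limma). The receptor *Thra* was at 20.2 ± 4.02 and 19.6 ± 7.81 TPM (SD, n = 3 each).

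Imprinted genes of other chromosomes had log2 differences of both signs. Of 29 listed, 19 passed the filter, with 11 log2 differences above 0 and 8 below and a median of 0.14. None of the 19 passed the adjusted test, and 5 (26.3%) had an unadjusted p under 0.05 against 7.96% of all genes. *Gm24966*, the gene called over all genes, lies on the same chromosome as *Snrpn* of this list but was not itself listed. *Plagl1*, a paternally expressed zinc finger regulator, was at 25.9, 31.7 and 23.5 TPM in controls 1 to 3 and at 39.4, 69.2 and 71.5 TPM in KO clones 1 to 3 (log2 difference 1.09, SE 0.25, adjusted p = 0.537 in limma). The paternally expressed *Nnat*, which encodes neuronatin, was at 307, 356 and 465 TPM against 485, 805 and 657 TPM (0.78, SE 0.23, adjusted p = 0.568 in limma). The maternally expressed growth inhibitor *Cdkn1c* was at 1.40, 2.07 and 0.541 TPM against 2.42, 5.31 and 2.85 TPM (0.96, SE 0.36, adjusted p = 0.605 in limma). Every KO clone was above every control for these 3 genes, 15.8% of the 19 against 9.69% of all genes.

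The maternally expressed *Zim1* was the one gene of this list (5.26% against 4.03% of all genes) lower in every KO clone, at 36.7, 35.8 and 39.5 TPM against 26.7, 24.2 and 16.5 TPM (log2 difference -0.73, SE 0.19, adjusted p = 0.556 in limma). *Igf2*, a paternally expressed growth factor, was at 156, 190 and 123 TPM against 113, 85.2 and 125 TPM, with KO 3 just above control 3 (-0.53, SE 0.21, adjusted p = 0.607 in limma). By known parental origin, the 14 paternally expressed genes that passed had a median of 0.13 and the 5 maternally expressed a median of 0.46.

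With clone quality weights in limma, which lower the influence of control 3 and KO 1, 895 genes (5.02% of all tested) had an adjusted p under 0.05 together with a change of at least 2-fold. Of the 83 list genes tested, 4 met both criteria, *Dll1*, *Dio1* and *Plagl1* higher in KO clones and *Mest* lower, a share of 4.82%. Of the 56 neighbours, 2 met both, *Gm27299*, with 4 reads in all, and *Gm22079*, with at most 12 reads in a clone. These genes were named after their values were seen, other than *Plagl1* and *Gm27299*.

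**Figure D4:**
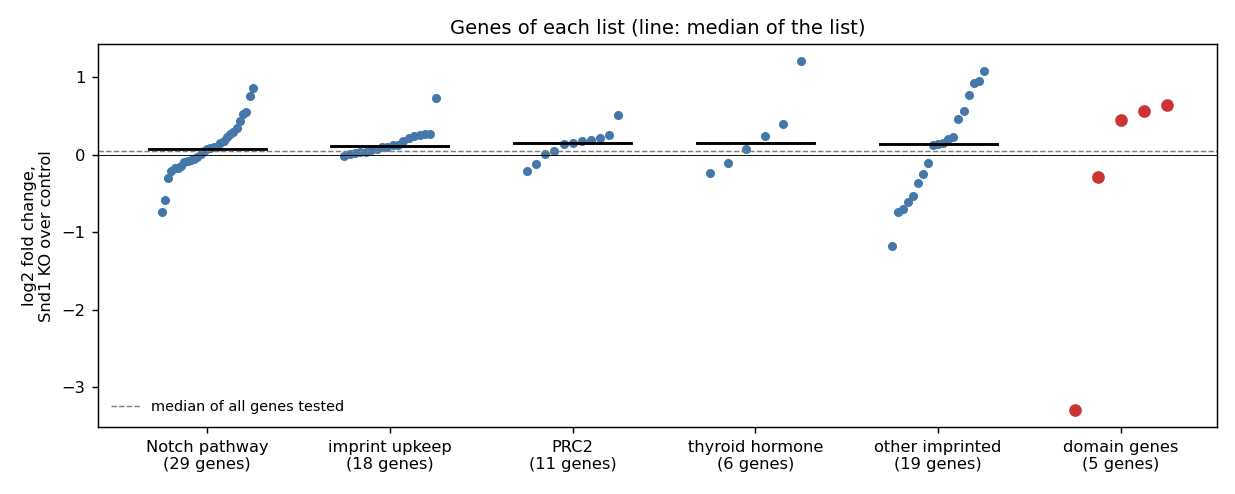
log2 fold change of Snd1 KO over control (vertical axis, log2(TPM + 1) scale) of every tested gene of 5 lists and of the 5 domain genes that passed the filter (horizontal axis), with a black line at the median of each list and a dashed line at the median of all genes tested. The list medians lie between 0.07 and 0.16, while Dlk1 lies at -3.30.

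The genes whose pattern over the 6 clones was most like that of *Dlk1*, by Pearson correlation of log2(TPM + 1) among 2314 variable genes, were *Gm24966* (r = 0.987), *Lbh* (r = 0.974), *Snd1* (r = 0.964), *Src* (r = 0.961) and *Lrch2* (r = 0.957). For *Meg3* they were *AV099323* (r = 0.987), *Mir7116* (r = 0.975), *Gm23966* (r = 0.971), *Gm45683* (r = 0.970) and *Cbr1* (r = 0.966), of which *Mir7116* and *Gm23966* rest on at most 15 reads in a clone. The same 6 clones entered every correlation, and no p is given. *Dlk1* was chosen because it split the groups, so its highest correlations favour genes with that split. Each gene named for *Dlk1* was lower in every KO clone, and shared regulation was not tested. *Lrch2*, at 12.3, 13.4 and 5.07 TPM in controls and 0.104, 0 and 0.00913 TPM in KO clones, was near 0 in all KO clones, while *Dlk1* kept 154 reads in KO 2.

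Markers of other cells were read beside *Dlk1*. Among the alpha cell markers, *Ttr*, the main share of their summed level, was at 17590, 20138 and 14122 TPM in controls and 3796, 3032 and 8774 in KO clones. The summed alpha list was at 14435 to 20312 TPM in controls and 3089 to 8925 in KO clones, but *Gcg*, *Irx1* and *Irx2* did not follow *Ttr*. *Gcg*, which encodes glucagon, overlapped between groups at 267, 174 and 314 TPM in controls and 1099.8 TPM in KO 1, 55.2 in KO 2 and 148 in KO 3. *Irx1*, at 0 to 1 reads in controls and 2 to 65 in KO clones, and *Irx2*, at 0 reads in controls and 1 to 2 in KO clones, lay higher in every KO clone. The summed delta list of 3, with *Hhex* at 0 and only *Rbp4* above the filter, was at 23.9 to 40.0 TPM in controls and 3.49 to 10.1 in KO clones, a difference carried by *Rbp4*, at 40.0, 32.7 and 23.9 TPM in controls and 1.07, 10.1 and 8.29 in KO clones. *Sst*, which encodes somatostatin and defines delta cells, had 0, 2 and 0 reads in controls and 9, 0 and 0 in KO clones. The 5 mesenchymal markers summed to 3.41, 4.99 and 0.108 TPM in controls 1 to 3 and 0.417 to 0.740 in KO clones. Exocrine and endothelial lists stayed at or below 0.752 TPM in each clone, the PP cell list at or below 0.196, and the immune list at 1.02 to 2.78. The part of these markers in the level of *Dlk1* was not tested.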

How the data were processed

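RNA of 6 MIN6 clones (3 control, 3 *Snd1* KO) was sequenced by the authors on a NovaSeq from Takara cDNA and Nextera XT libraries. The submitters' processing notes name FastQC, Trimmomatic, HISAT2, HTSeq, DESeq2 and build mm10, with no versions. The deposited values are TPM for 53900 rows, 53801 of them mouse genes. Names and coordinates came from GENCODE M21 (53706 matched, 95 not). Multiplying the deposited TPM by summed exon length gave whole reads within 0.01 for 93.3% to 93.8% of values above 0 and for every domain gene. Tests were run on genes whose mean reached 0.5 TPM in limma 3.58.1 (R 4.3.3) on log2(TPM + 1), with a trended variance and Benjamini-Hochberg adjusted p-values over 17823 genes. A gene was called at an adjusted p under 0.05 and at least 2-fold. The fitting step was tested on simulated data.

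The domain genes and the gene lists were chosen with earlier results of these data known. Each clone has 1 library, so p-values measure the spread between these clones. Named list genes were up to 3 in each direction with the largest log2 difference among those without overlap, named small RNA genes the 5 with the most reads, and named similar genes the 5 highest correlations (mean of at least 5 TPM, range of at least 1 in log2). *Notch1*, *Notch2* and other genes given with values as roles of a pathway lie outside that rule and were named after their values were seen. Alternatives were a pseudocount of 0.1, no filter or a mean of 5 TPM, quantile and median ratio scaling, clone weights, a replicate block, each clone left out, merged exon lengths, and voom on the recovered reads.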

Additional observations from a re-analysis of the deposited data

How the results depend on the processing

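The count of genes called was 1 as analysed. It was 0 with no filter on low values (30973 tested), 0 in voom on the recovered reads (17796 tested), 895 with clone quality weights (525 higher, 370 lower), and 0 to 1 when any single clone was left out, being 1 only without KO 2. The gene lists went from 0 to 4 calls (3 higher, 1 lower) and the neighbours from 0 to 2 (1 higher, 1 lower) with clone quality weights. The log2 difference of *Dlk1* was -5.51 with a pseudocount of 0.1 and -7.74 in voom, and lay between -3.74 and -3.06 when a clone was left out. That of the *Dlk1* to *Meg3* ratio was -6.16 with a pseudocount of 0.1 and -4.76 per merged exon length. The sizes with another pseudocount or with merged exon lengths follow from construction, since a new length changes a TPM but not the added 1 TPM. For the other changes the cause was not tested. *Dlk1* stayed below 0 in 14 of 14 alternatives and *Begain* in 13 of 13, and *Meg3*, *Rian* and *Mirg* stayed above 0 in 14 of 14 each. For *Dlk1*, *Meg3* and *Rian*, whose groups did not overlap, leaving out a clone could not change the sign.

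Control and KO clones share only a replicate number: the correlations of same-numbered clones were 0.051, -0.122 and -0.074. With the replicate block 0 genes were called, and the log2 differences of the domain genes were the same.

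With 3 clones in each group, reads of *Rtl1*, *Dio3* and most small RNA genes were too few to show a difference. Overlapping transcripts cannot be told apart, as the strand setting is not given in the sources used here, and mature microRNAs were not analysed here.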

Other observations

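Some genes, picked after their values were seen, separated controls 1 and 2 from control 3 and the KO clones. *Mest*, a paternally expressed gene of another imprinted cluster, was at 2.18 and 3.54 TPM in controls 1 and 2, at 0.0516 TPM in control 3, and at 0.0165, 0.154 and 0.112 TPM in the KO clones. *Col3a1*, a collagen gene of mesenchymal cells, was at 1.68 and 1.73 TPM in controls 1 and 2, at 0 in control 3, and at 0.0306, 0.111 and 0.0445 TPM in the KO clones. *Gm34081*, between *Dlk1* and *Meg3*, had the arrangement given above.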
